A study of Mus musculus with 14 samples.

Results

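Mouse mitochondrial DNA carries 37 genes whose symbols begin with mt-, and all 37 were among the 52550 genes of the count table. They were taken by symbol, after matching the gene identifiers to the GRCm38 mouse assembly, and comprised 13 protein genes, 2 ribosomal RNA (rRNA) genes and 22 transfer RNA (tRNA) genes. RNA sequencing had been done on 14 lung adenocarcinomas of KPY mice, which carried floxed p53 (Trp53 flox/flox) and a homozygous Cre reporter (Rosa26 LSL-YFP/LSL-YFP), among other alleles, on a mixed B6J/129S4vJae background. Tumors were started with a lentivirus that carried Cre, Cas9 and a guide RNA, so that the alleles Cre acts on, p53 loss and YFP among them, were shared by both groups. The guide was a control in the 6 KPY-Ctrl tumors and targeted Setd2, a histone H3 lysine methyltransferase gene, in the 8 KPY-Setd2KO tumors. The study's methods describe microdissected tumors from which live YFP+ cells were sorted, whereas the sample labels name lung as the tissue and, in the protocol, cell lines as the RNA source. This difference could not be settled here. Ages were not given for single tumors. In both groups the study's RNA data came from fewer mice than tumors, without a record of which tumors shared a mouse. The tests therefore treated tumors as independent and measured only the spread between them, so standard errors and p may be too small. The question put to these genes was whether RNA from the mitochondrial genome differed with Setd2 genotype.

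The mitochondrial genome is a small circle transcribed from both strands as long precursors. The precursors are cut mainly at the tRNAs that lie between the other genes, which releases rRNAs and mRNAs, and most of the mRNAs gain a short poly(A) tail. All 13 proteins are subunits of the oxidative phosphorylation machinery: 7 belong to complex I (NADH dehydrogenase), 1 to complex III, 3 to complex IV (cytochrome c oxidase) and 2 to complex V (ATP synthase). In the annotation 12 protein genes, both rRNA genes and 14 tRNA genes lay on the plus strand, and mt-Nd6 with 8 tRNA genes lay on the minus strand.

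Several of these genes share bases, which matters because a read from the shared stretch, or from a precursor that spans the junction, has more than 1 possible gene. The following stretches of the GRCm38 mitochondrial chromosome show the joints, 5′ to 3′, with the shared bases in capitals. The first, chrM:7907-7989 on the plus strand, holds the 43 bases common to mt-Atp8 and mt-Atp6. The second, chrM:10147-10193 on the plus strand, holds the 7 bases common to mt-Nd4l and mt-Nd4. The third, chrM:13532-13585, is printed as the plus strand and holds 14 bases that mt-Nd5 uses as printed and mt-Nd6 uses as the reverse complement.
mt-Atp8 and mt-Atp6: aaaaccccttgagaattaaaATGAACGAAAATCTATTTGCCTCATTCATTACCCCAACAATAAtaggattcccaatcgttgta
mt-Nd4l and mt-Nd4: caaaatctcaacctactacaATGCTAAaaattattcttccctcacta
mt-Nd5 and mt-Nd6: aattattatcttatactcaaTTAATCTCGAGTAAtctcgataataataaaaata

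Mitochondrial protein genes took a large and variable part of each library. The 13 genes together held 4.32, 3.87, 5.89, 6.79, 7.24 and 8.42% of all counts in KPY-Ctrl tumors 1 to 6, and 4.74, 3.34, 4.07, 3.82, 7.02, 9.48, 14.5 and 11.7% in KPY-Setd2KO tumors 1 to 8. The group means were 6.09% ± 1.75 (SD, n = 6) and 7.34% ± 4.15 (SD, n = 8), a difference of 1.25 percentage points that was smaller than the spread within KPY-Setd2KO. The groups overlapped widely: 3 KPY-Setd2KO tumors (6, 7 and 8) lay above every control and 2 (2 and 4) lay below every control. Tumor 7 carried most of the difference in means, which fell to 0.222 percentage points without it. The medians were in the opposite order, 6.34% in KPY-Ctrl and 5.88% in KPY-Setd2KO.

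**Figure D1:**
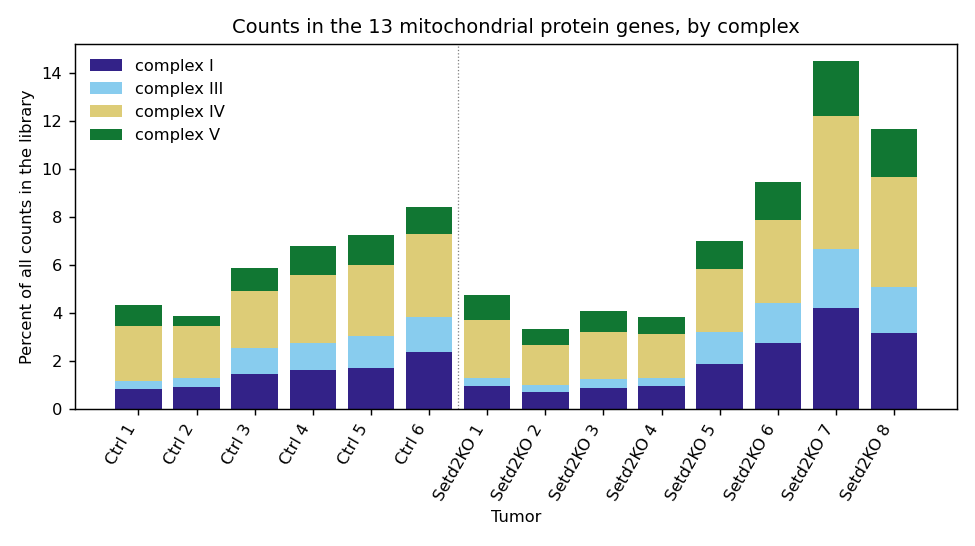
Stacked bars give the percent of all counts in each tumor's library (vertical axis) that fell in the 13 mitochondrial protein genes, split by complex, for 6 KPY-Ctrl and 8 KPY-Setd2KO tumors. The bars run from 3.34% in KPY-Setd2KO tumor 2 to 14.5% in KPY-Setd2KO tumor 7, and the highest and lowest are both KPY-Setd2KO tumors.

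The libraries also differed in depth and in cell type markers. Library totals were 27866266 to 51828846 counts for KPY-Ctrl and 20072236 to 40604404 for KPY-Setd2KO, so counting error was negligible beside the differences between tumors. Setd2 itself, which the guide targeted, ran from 41.9 to 63.6 CPM (counts per 1000000 of the scaled library size) in KPY-Ctrl and from 17.9 to 47.4 CPM in KPY-Setd2KO. Its edgeR log2 fold change was -0.74 ± 0.22 (SE), with an adjusted p of 0.175. KPY-Setd2KO tumors 1 to 4 had 32.7 to 47.4 CPM and tumors 5 to 8 had 17.9 to 28.2 CPM. Tumors 5 to 8 lay below every control, as did tumors 1 and 3. Cutting by Cas9 need not lower the RNA level. All 10 markers of the tumor epithelium had counts in every tumor, but their summed level (37262 to 63827 CPM in KPY-Ctrl and 23680 to 61656 CPM in KPY-Setd2KO) is no check of the label, because Lyz2, which macrophages also express, made up as much as 43549 of 50064 CPM (KPY-Setd2KO tumor 2). Epcam, an epithelial surface protein, was at 152, 242 and 285 CPM in KPY-Ctrl tumors 1, 2 and 6 and 72.2 to 197 CPM in KPY-Setd2KO tumors 1 to 4, against 464 to 843 CPM in the other 7 tumors. All 14 leukocyte markers also had counts, although the cells were sorted for YFP according to the methods. Their summed level was 9312, 8955 and 6807 CPM in KPY-Ctrl tumors 1, 2 and 6 and 9542, 12536, 11236 and 10352 CPM in KPY-Setd2KO tumors 1 to 4, against 301 to 1071 CPM in the tumors with the higher Epcam. All 5 endothelial and all 5 erythroid markers had log2 fold changes above 0, with medians of 1.04 and 1.11 and none called. The summed erythroid level was 316, 473 and 752 CPM in KPY-Setd2KO tumors 6, 7 and 8, against a control median of 125 CPM. Those were the tumors with the largest mitochondrial shares. But it was also 664 CPM in KPY-Setd2KO tumor 4 and 315 CPM in KPY-Ctrl tumor 2, whose mitochondrial shares were only 3.82 and 3.87%. Fibroblast markers were low, at 2.79 to 85.7 CPM over all tumors. By leukocyte level, the tumors with the high leukocyte sums had mitochondrial shares of 3.34 to 4.74%, except KPY-Ctrl tumor 6 at 8.42%. The other 7 tumors had 5.89 to 14.5%. The part of these cell types in the mitochondrial shares was not tested. Each genotype thus held both kinds of library, and fewer cells of a type and less RNA per cell cannot be told apart in such samples.

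Of the 37 mitochondrial genes, 26 passed the filter on low counts and were tested with edgeR: all 13 protein genes, both rRNA genes and 11 of the tRNA genes. None was called at an adjusted p under 0.05 with an absolute log2 fold change over 1, and the share of all 16836 genes called was 0%. At an unadjusted edgeR p under 0.05, 1 of the 26 members passed, against 13.7% of all genes tested. DESeq2 put 1 of the 34 members to which it gave an adjusted p past 0.05, the tRNA gene mt-Ts2 described further on. Over all genes, 1.94% of the 34773 with a DESeq2 p passed, a base that also holds genes without an adjusted p. All 13 protein genes had a log2 fold change above 0 (KPY-Setd2KO over KPY-Ctrl), with a median of 0.31 beside 0.03 over all genes. These 13 values come from the same 14 libraries and are not independent of each other. The median was 0.05 without KPY-Setd2KO tumor 7 and 0.51 without KPY-Ctrl tumor 6. Without tumor 7, 10 protein genes stayed above 0 and 3 (mt-Nd1, mt-Co3 and mt-Cytb) were below.

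**Figure D2:**
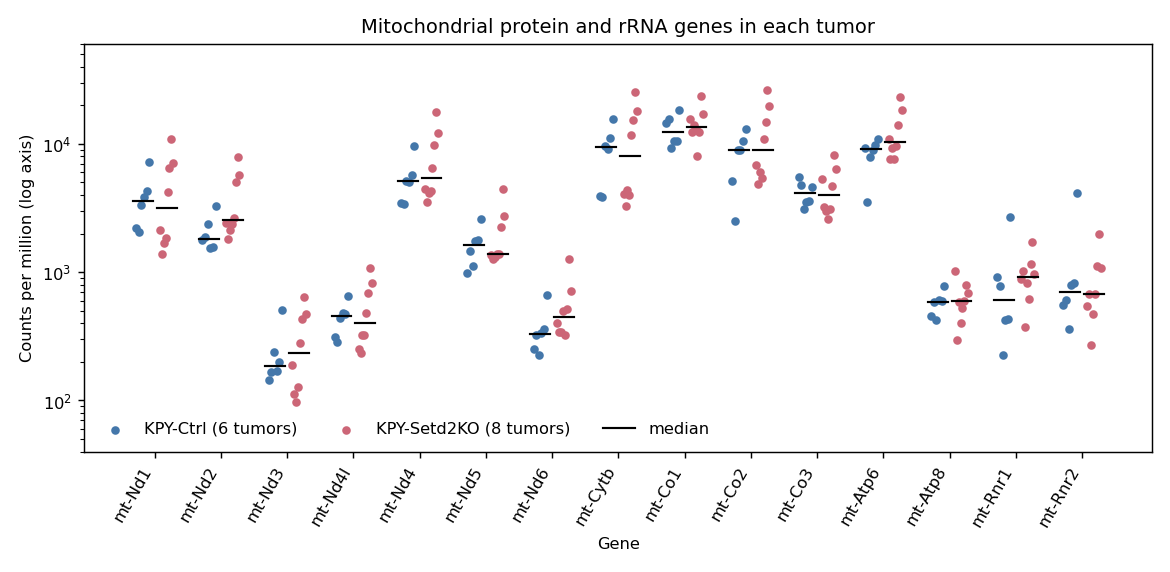
Each point is 1 tumor, plotted as CPM on a log axis, for the 13 protein genes and 2 rRNA genes, with KPY-Ctrl in blue, KPY-Setd2KO in red and black lines at the group medians. The 2 groups overlap for every gene, and KPY-Setd2KO tumor 7 is the highest of the 14 tumors for 12 of the 13 protein genes.

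Complex I is the entry point of electrons from NADH, and its 7 mitochondrial subunits include the proton-pumping membrane core. mt-Nd2, one of these core subunits, had the largest fold change among the protein genes. Its level was 1556 to 3252 CPM in KPY-Ctrl with a median of 1824, and 1815 to 7879 CPM in KPY-Setd2KO with a median of 2534. All 3 of KPY-Setd2KO tumors 6, 7 and 8 lay above the highest control, at 5001, 7879 and 5766 CPM, and the others lay within the controls' range. The log2 fold change was 0.86 ± 0.36 (SE), with an unadjusted edgeR p of 0.0303 and an adjusted p of 0.306. The unadjusted edgeR p was 0.0708 without tumor 7 and was under 0.05 in 7 of the 14 fits that left out 1 tumor, with adjusted p from 0.244 to 0.558. mt-Nd2 also took a different part of the mitochondrial mRNA: of the counts in the 13 genes, it held 3.69, 4.67, 4.50, 2.83, 2.59 and 3.71% in KPY-Ctrl tumors 1 to 6 and 4.38 to 5.75% in the KPY-Setd2KO tumors. On that scale only KPY-Ctrl tumors 2 and 3 reached the KPY-Setd2KO range, a pattern that was noticed in the values and was not tested.

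mt-Nd4, another pump subunit, ran from 3397 to 9690 CPM with a median of 5092 in KPY-Ctrl and from 3503 to 17749 CPM with a median of 5428 in KPY-Setd2KO. The 3 highest tumors were KPY-Setd2KO tumors 7, 8 and 6, but tumor 6, at 9726 CPM, was level with KPY-Ctrl tumor 6 and the medians were close. Its log2 fold change was 0.53 ± 0.40 (SE), adjusted p 0.625. mt-Nd4l, which shares a precursor region and 7 bases with mt-Nd4, ran from 288 to 653 CPM in KPY-Ctrl and from 236 to 1075 CPM in KPY-Setd2KO, and its log2 fold change was 0.25 ± 0.36 (SE), adjusted p 0.832. Both ends of its range were KPY-Setd2KO tumors.

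mt-Nd1 ran from 2053 to 7196 CPM in KPY-Ctrl and from 1390 to 10913 CPM in KPY-Setd2KO. KPY-Setd2KO tumors fell on both sides of the controls, with 1 above the highest control and 3 below the lowest, and the log2 fold change was 0.23 ± 0.49 (SE), adjusted p 0.894. mt-Nd3 spread to both sides as well, with 144 to 510 CPM in KPY-Ctrl, 97.2 to 639 CPM in KPY-Setd2KO and a log2 fold change of 0.31 ± 0.46 (SE), adjusted p 0.842. mt-Nd5, the longest of the protein genes, ran from 986 to 2581 CPM in KPY-Ctrl and from 1262 to 4443 CPM in KPY-Setd2KO. Its median was lower in KPY-Setd2KO (1386 against 1616 CPM) although its log2 fold change was 0.32 ± 0.33 (SE), adjusted p 0.750.

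mt-Nd6 is the only protein gene of the minus strand, so its own RNA comes from the other precursor. The strand setting of the counting is not known, so counts on mt-Nd6 cannot be assigned to the minus strand with certainty. The gene ran from 227 to 665 CPM with a median of 329 in KPY-Ctrl and from 321 to 1256 CPM with a median of 447 in KPY-Setd2KO. Only KPY-Setd2KO tumors 7 and 8 exceeded the highest control, which was KPY-Ctrl tumor 6, and the log2 fold change was 0.60 ± 0.35 (SE), adjusted p 0.480. Set against the 12 protein genes of the plus strand, mt-Nd6 had 0.436 to 0.804 counts per 100 counts in KPY-Ctrl and 0.540 to 1.14 in KPY-Setd2KO. On the log2 scale the group means of that ratio were -7.35 ± 0.33 (SD, n = 6) and -7.08 ± 0.34 (SD, n = 8), a difference of 0.28 that was within the spread of either group. With the counts of nuclear copies added, as given further on, the means were -7.53 ± 0.26 (SD, n = 6) and -7.16 ± 0.32 (SD, n = 8). That difference of 0.37 was larger than the SD of either group, though the groups still overlapped, and it was not tested. KPY-Setd2KO tumor 4 had the highest ratio and KPY-Ctrl tumor 3 the lowest.

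Complex III has a single mitochondrial subunit, cytochrome b, encoded by mt-Cytb. Its level was 3934, 3827, 9703, 9185, 11034 and 15522 CPM in KPY-Ctrl tumors 1 to 6 and 4084, 3301, 4369, 4024, 11626, 15394, 25412 and 17920 CPM in KPY-Setd2KO tumors 1 to 8. Each genotype held tumors of 3301 to 4369 CPM and tumors of 9185 CPM or more, so that the log2 fold change of 0.28 had an SE of 0.52 and an adjusted p of 0.876. The low tumors were KPY-Ctrl 1 and 2 and KPY-Setd2KO 1 to 4.

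Complex IV passes electrons to oxygen, and its catalytic core is made of the products of mt-Co1, mt-Co2 and mt-Co3. mt-Co1 was the steadiest of the 13 genes, with 9257 to 18194 CPM (median 12435) in KPY-Ctrl and 8082 to 23564 CPM (median 13504) in KPY-Setd2KO, a highest-to-lowest ratio of 2.92 over all 14 tumors. Its log2 fold change was 0.15 ± 0.25 (SE), adjusted p 0.856. mt-Co3 followed, with a ratio of 3.12, a range of 3129 to 5552 CPM in KPY-Ctrl and 2598 to 8113 CPM in KPY-Setd2KO, and a log2 fold change of 0.11 ± 0.28 (SE), adjusted p 0.909.

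In the counts as deposited, mt-Co2 was the least steady protein gene, with a highest-to-lowest ratio of 10.5. It ran from 2502 to 13097 CPM (median 8978) in KPY-Ctrl and from 4824 to 26202 CPM (median 8876) in KPY-Setd2KO. The lowest value was KPY-Ctrl tumor 2 and the highest KPY-Setd2KO tumor 7, and the log2 fold change was 0.53 ± 0.46 (SE), adjusted p 0.677. The low value of KPY-Ctrl tumor 2 was matched by counts on a nuclear copy of the gene, as given further on. With the copy added that tumor had 6309 CPM, and the lowest tumor was KPY-Setd2KO tumor 2 at 4824 CPM. The ratio of 10.5, and with it the rank of mt-Co2, thus depended on how reads were split between gene and copy.

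Complex V makes ATP, and mt-Atp6 and mt-Atp8 encode parts of its membrane portion. mt-Atp6 had 3511 to 10932 CPM (median 9164) in KPY-Ctrl and 7564 to 22992 CPM (median 10336) in KPY-Setd2KO. In these counts as deposited, tumors 1, 6, 7 and 8 of KPY-Setd2KO lay above the highest control, and KPY-Ctrl tumor 2 lay far below all others. With the counts of a nuclear copy added, as given further on, only KPY-Setd2KO tumors 7 and 8 lay above the highest control (17326 CPM). KPY-Ctrl tumor 2 then had 9222 CPM, within the range of the other controls. The edgeR log2 fold change of mt-Atp6 without the copy was 0.58 ± 0.32 (SE), adjusted p 0.455. mt-Atp8, upstream on the same precursor, had 420 to 774 CPM in KPY-Ctrl and 297 to 1023 CPM in KPY-Setd2KO, and its log2 fold change was 0.11 ± 0.25 (SE), adjusted p 0.904. It was the single protein gene whose highest tumor was not KPY-Setd2KO tumor 7 but tumor 1.

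**Figure D3:**
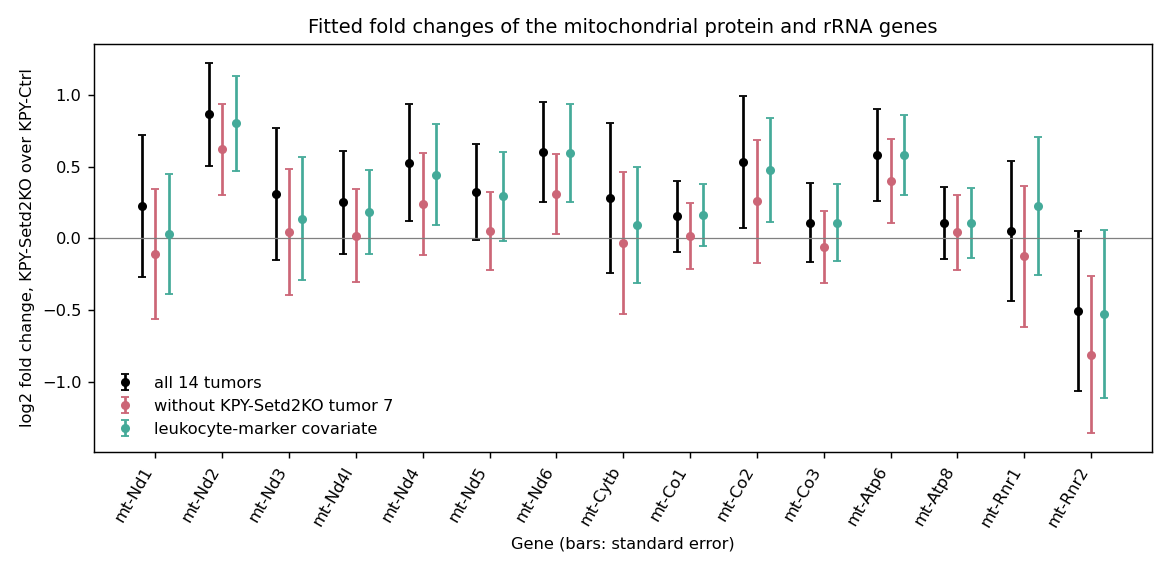
Points are edgeR log2 fold changes of KPY-Setd2KO over KPY-Ctrl with standard errors for the 13 protein genes and 2 rRNA genes, from all 14 tumors (black), without KPY-Setd2KO tumor 7 (red) and with a leukocyte-marker covariate (green). mt-Nd2 is the highest of the 15 genes in all 3 fits, at 0.86 with all tumors and 0.62 without tumor 7, and mt-Rnr2 is the lowest.

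Per length, the order of the genes across all 14 tumors was led by complexes IV, V and III. Mean levels in CPM per kilobase of transcript were 15847 for mt-Atp6, 15013 for mt-Co2, 8988 for mt-Co1, 8700 for mt-Cytb, 5617 for mt-Co3 and 4919 for mt-Nd4. Next came mt-Nd1 at 4373, mt-Atp8 at 2923, mt-Nd2 at 2918 and mt-Nd4l at 1648, and then mt-Nd5 at 1011, mt-Nd6 at 901 and mt-Nd3 at 776. Genes cut from the same precursor thus differed by more than 10 times in counts per length. This is the order of means over tumors whose make-up differed, and of the 12 pairs of neighbouring protein genes in it, 11 switched places in at least 1 tumor. mt-Atp6 was above mt-Co2 in 7 of the 14 tumors and mt-Co1 above mt-Cytb in 6, and only mt-Nd4l and mt-Nd5 kept their order in all 14. These levels leave out counts on the nuclear copies given further on. For mt-Co1 the copy Gm29216 held 15.9 to 30.1% of the joint counts, so the order of genes with a copy depends on how reads were split. mt-Atp8 and mt-Nd4l are the shortest protein genes and overlap a neighbour, so their level depends on how reads from the joints were assigned.

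For mt-Co1 and mt-Cytb, the least correlated pair of protein genes, the make-up of the mitochondrial mRNA differed more between tumors than between genotypes. This did not hold for every gene: the part held by mt-Nd2 had group means of 3.66% ± 0.84 (SD, n = 6) in KPY-Ctrl and 4.93% ± 0.53 (SD, n = 8) in KPY-Setd2KO. The ratio of mt-Co1 to mt-Cytb counts was 3.67, 4.06, 0.954, 1.14, 0.947 and 1.17 in KPY-Ctrl tumors 1 to 6. In KPY-Setd2KO tumors 1 to 8 it was 3.85, 3.74, 3.20, 3.24, 0.695, 0.80, 0.927 and 0.955. No tumor lay between 1.17 and 3.20, and both genotypes had tumors on either side. The group means of the log2 ratio were 0.69 ± 0.98 (SD, n = 6) and 0.77 ± 1.11 (SD, n = 8), a difference of 0.08 that was far smaller than the spread within either group. Adding the counts of nuclear copies kept the tumors on the same sides, with no tumor between 1.53 and 3.80.

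Other measures of the same libraries moved with this ratio. KPY-Ctrl tumors 1 and 2 and KPY-Setd2KO tumors 1 to 4 had a leukocyte score, the mean log2 CPM of 12 tested leukocyte markers, of 8.67 to 9.13, and the others had 3.66 to 5.79 with the exception of KPY-Ctrl tumor 6 at 8.33. Rn7sk, a small nuclear RNA that carries no poly(A) tail, was at 9.52 to 73.9 CPM in those 6 tumors and at 306 to 6294 CPM in the other 8, without overlap. The summed level of 4 nuclear-retained RNAs, Malat1 and Neat1 among them, was 121 to 386 CPM in those 6 tumors and 582 to 1700 CPM in the other 8. The 13 protein genes held 3.34 to 4.74% of all counts in those 6 tumors and 5.89 to 14.5% in the other 8, also without overlap. The part of the leukocyte markers, Rn7sk and the nuclear-retained RNAs in the make-up or the share of the mitochondrial RNA was not tested. When the leukocyte score entered the fit as a covariate, all 13 protein genes stayed above 0 with a median log2 fold change of 0.18, no member was called, and the smallest adjusted p among members was 0.159 (mt-Nd2), while 2.14% of all genes were called.

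**Figure D4:**
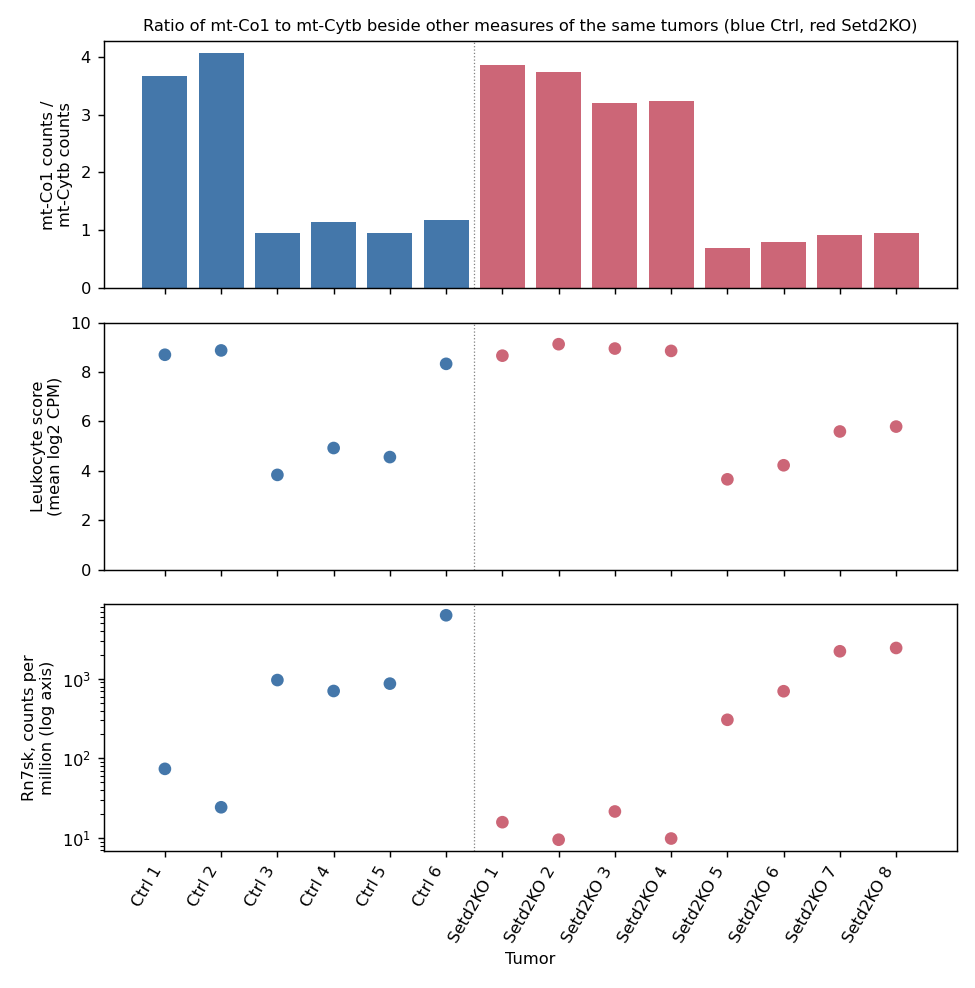
For each of the 14 tumors the top panel gives the ratio of mt-Co1 to mt-Cytb counts, the middle panel the leukocyte score in mean log2 CPM and the bottom panel Rn7sk in CPM on a log axis, with KPY-Ctrl in blue and KPY-Setd2KO in red. KPY-Ctrl tumors 1 and 2 and KPY-Setd2KO tumors 1 to 4 have ratios of 3.20 or more and Rn7sk of 73.9 CPM or less, and KPY-Ctrl tumor 6 combines a ratio of 1.17 with a leukocyte score of 8.33.

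Across the 14 tumors the protein genes tracked each other to very different degrees. Over log2 CPM, the highest of the 78 pairwise Pearson correlations was 0.979 for mt-Nd1 with mt-Cytb, the median was 0.728 and the lowest was 0.163 for mt-Co1 with mt-Cytb. These are descriptions over 14 tumors that share library depth and scaling. Among the 16810 tested genes that are no member, the gene most like the summed level of the 13 was Gm13341 (r = 0.958), and then came Gm37144, Gm42830, Gm11225 and A130071D04Rik with r from 0.943 to 0.948. The next were Gm4034, Gm30329, Gm43488, Ppp1r16b and Gm47469 with r from 0.936 to 0.942, and 0.303% of these genes had r above 0.9.

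The rRNAs of the mitochondrial ribosome are encoded by mt-Rnr1 (small subunit) and mt-Rnr2 (large subunit). They had the widest spread of the 15 protein and rRNA genes, with highest-to-lowest ratios of 11.9 and 15.2. mt-Rnr1 ran from 227 to 2697 CPM (median 604) in KPY-Ctrl and from 374 to 1709 CPM (median 920) in KPY-Setd2KO, and mt-Rnr2 from 361 to 4113 CPM (median 703) and from 271 to 1983 CPM (median 673). KPY-Ctrl tumor 6 was the highest of all tumors for both. The log2 fold changes were 0.05 ± 0.49 (SE), adjusted p 0.979, and -0.51 ± 0.56 (SE), adjusted p 0.767, and without KPY-Ctrl tumor 6 that of mt-Rnr2 was 0.43.

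At 0.0555 to 0.654% of all counts, both rRNAs together were far below the protein genes, in libraries that the protocol describes as selected for mRNA. Per length, mt-Rnr1 was at 973 and mt-Rnr2 at 635 CPM per kilobase. The ratio of mt-Rnr1 to mt-Rnr2 counts was 1.63 and 1.27 in KPY-Ctrl tumors 1 and 2 and 0.527 to 0.656 in KPY-Ctrl tumors 3 to 6. In KPY-Setd2KO it was 1.38 to 1.77 in tumors 1 to 4 and 0.862 to 1.04 in tumors 5 to 8. The tumors on the high side were those with a high mt-Co1 to mt-Cytb ratio.

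No tRNA gene is longer than the 75-base reads, and how reads were assigned between them and the genes beside them is not given in the sources used here. Together the 22 genes held 0.0110 to 0.0452% of all counts. Minus-strand genes held 96.9% of these counts, almost all of it in mt-Ts1 (79628 counts) and mt-Te (21430 counts). mt-Te lies directly upstream of the mt-Nd6 gene on its strand, and mt-Ts1 lies on the opposite strand from mt-Co1 and shares 3 bases with its end. Apart from those genes, 14 plus-strand genes had 3352 counts and 6 minus-strand genes had 3523. The mt-Ts1 sequence, chrM:6870-6938 on the minus strand, is printed 5′ to 3′ with the bases that overlap mt-Co1 in capitals.
mt-Ts1: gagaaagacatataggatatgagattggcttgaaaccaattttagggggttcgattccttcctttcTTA

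mt-Ts1 had 57.5 to 194 CPM in KPY-Ctrl and 79.9 to 311 CPM in KPY-Setd2KO, and its log2 fold change was 0.46 ± 0.35 (SE), adjusted p 0.626. The strand setting of the counting is not known, so reads over the bases it shares with mt-Co1, or from a mt-Co1 transcript that runs past its annotated end, cannot be assigned to either gene with certainty. mt-Te had 22.1 to 79.9 CPM in KPY-Ctrl and 17.5 to 145 CPM in KPY-Setd2KO, with a log2 fold change of 0.25 ± 0.47 (SE), adjusted p 0.878. Of the 11 tRNA genes tested, 8 had log2 fold changes above 0 and 3 below, from -0.43 (mt-Tl1) to 1.06 (mt-Tm), and none had an adjusted p under 0.626. The other 11, from mt-Tl2 with 1 count to mt-Td with 139 counts over all tumors, did not pass the filter.

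mt-Ts2, a serine tRNA gene, was singled out after its values were seen. Of the 37 members it alone had groups that did not overlap in CPM, a pattern that 0.331% of the 35047 genes with a count showed (0.177% higher in KPY-Setd2KO). Its counts were 1, 1, 0, 2, 0 and 0 in KPY-Ctrl tumors 1 to 6 and 4, 10, 7, 12, 13, 25, 10 and 20 in KPY-Setd2KO tumors 1 to 8. Every KPY-Setd2KO tumor thus had more counts than any control, in libraries of high and of low leukocyte score alike. The sums were 4 counts in 247529185 and 101 counts in 256945841, a ratio of rates of 24.3 (95% exact interval 9.21 to 91.0, counting error only). The gene is at chrM:11613-11671 on the plus strand and is printed 5′ to 3′ with the base it shares with mt-Tl2 in capitals.
mt-Ts2: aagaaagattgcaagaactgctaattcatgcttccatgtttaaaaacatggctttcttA

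The filter removed mt-Ts2 because its counts were low. In the edgeR fit without a filter its log2 fold change was 4.47 with an unadjusted p of 2.69e-05 and an adjusted p of 0.105 (0% of all genes passed 0.05 in that fit), and the adjusted p ran from 0.0735 to 0.370 when each tumor was left out in turn. DESeq2 gave a log2 fold change of 4.78 ± 0.86 (SE) and an adjusted p of 3.59e-05. A fit with edgeR without a filter but with the leukocyte covariate gave an adjusted p of 0.0144, and 1.39% of all genes passed 0.05 in it. That covariate fit and the unfiltered fits that left out a tumor were chosen after the data were seen. At such low counts the edgeR fold change depends on the prior count, and the call depended on the model. The genes on either side did not share the pattern. mt-Th, which ends at the base before it, had 31 counts in KPY-Ctrl and 44 in KPY-Setd2KO with no separation of the groups, and mt-Tl2 had 0 and 1.

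**Figure D5:**
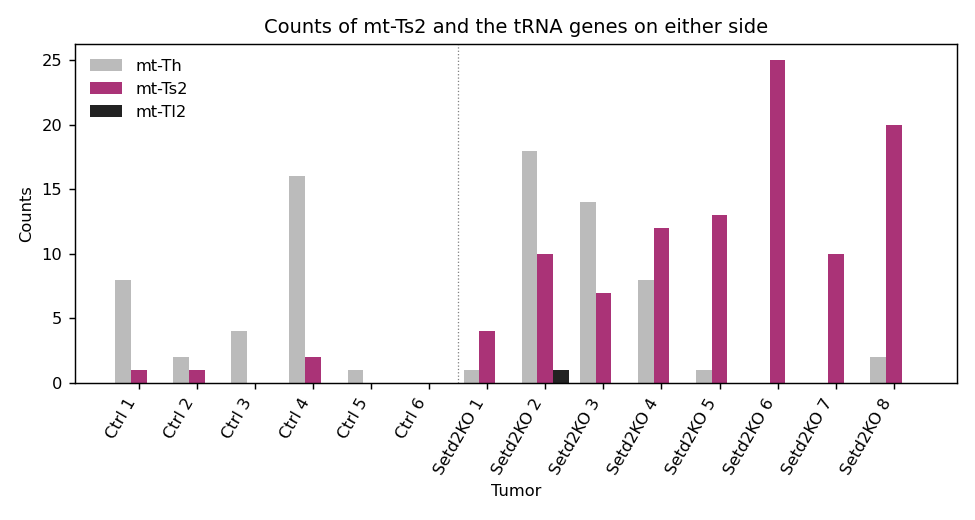
Bars give the deposited counts of mt-Ts2 (purple) and of its neighbours mt-Th (grey) and mt-Tl2 (black) in each of the 14 tumors. mt-Ts2 has 0 to 2 counts in the 6 KPY-Ctrl tumors and 4 to 25 counts in the 8 KPY-Setd2KO tumors, while mt-Th has 0 to 18 counts in tumors of both genotypes.

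Nuclear genomes hold inserted copies of mitochondrial DNA, and reads from a copy and from the mitochondrial gene cannot be told apart where the sequences are identical. In the GRCm38 annotation 8 pseudogenes matched a mitochondrial transcript over at least 75 bases at 97% identity or more, and 7 of them form a run on chromosome 1, minus strand. Gm10925 (chr1:24613974-24614651) matched mt-Atp6 in 678 of 678 bases, Gm28661 (chr1:24614885-24615565) matched mt-Co2 in 681 of 681 and Gm28439 (chr1:24611535-24612410) matched mt-Nd4 in 876 of 876. Gm29216 (chr1:24615706-24616197) matched mt-Co1 in 482 of 483 aligned bases. The alignment began at base 10 of the 492 bases of Gm29216, so its 5′ end was not compared. The single difference in the aligned stretch was A1066T, counted from 1 at the 5′ end of the mt-Co1 transcript, with the mitochondrial base first. The stretches around it, chrM:6390-6413 on the plus strand and chr1:24616165-24616188 on the minus strand, show how little separates the genes, with the differing base in capitals.
mt-Co1: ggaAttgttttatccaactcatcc
Gm29216: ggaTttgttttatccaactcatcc

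Gm29216 held 15.9 to 30.1% of the counts of mt-Co1 and itself together, with a median of 22.0% over the tumors, a rather steady part. Gm10925 was erratic: it held 61.9% of the joint counts with mt-Atp6 in KPY-Ctrl tumor 2 and 36.9% in KPY-Ctrl tumor 6, and from 0.00171 to 9.86% in the other 12 tumors. Gm28661 held 60.3% of the joint counts with mt-Co2 in KPY-Ctrl tumor 2 and 0.223% or less elsewhere. Gm28438, the copy of mt-Nd3, held 35.5, 0, 15.1, 23.3, 21.5 and 15% in KPY-Ctrl tumors 1 to 6 and 0 to 7.06% in KPY-Setd2KO. The tumors with a large part on a copy were mainly controls, and this moved the comparison between genotypes.

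With each copy's counts added to its gene, mt-Atp6 ran from 8174 to 17326 CPM in KPY-Ctrl and its log2 fold change was 0.24, adjusted p 0.788, against 0.58 without the copies. That of mt-Nd3 was 0.07 against 0.31 and that of mt-Co2 was 0.42 against 0.53, while mt-Co1 had 0.10 against 0.15 and mt-Nd4 0.48 against 0.53. The difference in the share of all counts was 0.896 percentage points with the copies and 1.25 without. The smaller copies Gm28437 (mt-Co3) and Gm13340 (mt-Co1) held at most 1.64 and 0.0845% of the joint counts, and Gm10222 (mt-Nd4l) had 0 counts in every tumor. The gene most like the summed level of the 13, Gm13341, is not one of these 8, but it matched mt-Co2 in 656 of 684 aligned bases.

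Mitochondrial RNA is made and processed by nuclear-encoded proteins, and 45 genes of this machinery were in the table, all tested. None was called, 8 had an unadjusted p under 0.05, all lower in KPY-Setd2KO (6.8% of all genes were lower at that level), and the median log2 fold change was -0.02 beside 0.03 over all genes. Supv3l1, a mitochondrial RNA helicase of the degradation machinery, had 16.1 to 21.5 CPM in KPY-Ctrl and 9.78 to 16 CPM in KPY-Setd2KO. The groups did not overlap, as for 0.57% of the genes tested, but the highest KPY-Setd2KO tumor and the lowest control were nearly level, and the log2 fold change was -0.49 ± 0.15 (SE), adjusted p 0.170. Fastkd2, an RNA-binding protein of the mitochondrial matrix, had a log2 fold change of -0.59 ± 0.19 (SE), adjusted p 0.208. Mterf2, of the transcription terminator family, had -0.93 ± 0.33 (SE), adjusted p 0.245, and Ppargc1a, a coactivator of mitochondrial biogenesis, had -0.84 ± 0.55 (SE), adjusted p 0.546. None of these values is a called difference.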

How the data were processed

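Expected counts per gene were deposited as 1 table for 14 tumors. Per the submitters' processing notes the authors used Salmon 0.8.2 with GRCm38.p5, and the annotation release and strand setting are not given in the sources used here. The deposited estimated counts were already whole numbers, and the largest (8 values in 3 genes, none a mitochondrial gene) held only 3 digits. Of 52550 identifiers, 52403 matched a GRCm38 symbol (GENCODE annotation), which gave coordinates and sequences. The labels describe a stranded mRNA kit and the methods a different kit for sorted cells. The authors' pseudogene rows were kept as deposited. A further allele that both groups carried is not reported here.

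KPY-Setd2KO was compared with KPY-Ctrl with edgeR 4.0.16 in R 4.3.3 (TMM scaling, expression filter, robust quasi-likelihood test, Benjamini-Hochberg adjustment over all genes tested) and with DESeq2 1.42.0 as an alternative. CPM used the TMM-scaled library size, and shares used all counts. The scripts were tested on simulated counts. A call needed a log2 fold change beyond 1 in size at an adjusted p below 0.05. Shares and ratios carried no test. Depth per library was 20072236 to 51828846 counts, and intervals cover counting error only. Libraries of a genotype all differed by far more than sampling noise.

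The members and gene lists were chosen with earlier results of these data known. Named genes were all 37 members, the machinery genes with the 3 smallest p and the 2 largest changes, the 10 other genes most correlated with the summed 13, the nuclear copies and Setd2. Alternatives were other scalings and filters, DESeq2, leaving out each tumor, a replicate block, a leukocyte-marker covariate and added nuclear copies.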

Additional observations from a re-analysis of the deposited data

Results flagged for a closer look

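Of 44 groups of values examined (22 quantities in each genotype), 3 held a tumor far from the rest of its genotype, and about 1 group in 20 is set apart by chance alone. The log2 CPM of mt-Atp6 in KPY-Ctrl tumor 2 was 11.78, against 12.96 to 13.42 in the other controls, and in that tumor 61.9% of the joint counts with the nuclear copy Gm10925 lay on the copy. The log2 CPM of mt-Rnr2 in KPY-Ctrl tumor 6 was 12.01, against 8.49 to 9.68 in the other controls. The mitochondrial rRNA genes took 0.6541% of counts in the same tumor, against 0.0661 to 0.151% in the other controls.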

How the results depend on the processing

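The count of called members stayed at 0 under both other scalings, scaling without the mitochondrial genes, both other filters, the replicate block, the leukocyte covariate, added nuclear copies and every fit that left out 1 tumor, and was 1 with DESeq2 (mt-Ts2). With the leukocyte covariate and a tumor left out, which was chosen after seeing the data, it was 0 to 1, the 1 being mt-Ts2, which the filter lets in only when a control is left out and through the KPY-Setd2KO tumors, where it is high, so these calls are no support. The median log2 fold change of the 13 protein genes was 0.18 to 0.32 under other scalings, filters, DESeq2, the covariate and added copies, 0.05 to 0.51 with a tumor left out, and 0.04 to 0.63 with the covariate and a tumor left out. Scaling by library size moved the median of all genes from 0.03 to -0.11, the machinery median from -0.02 to -0.18 and mt-Atp8 to -0.032. With a tumor left out the machinery median was -0.07 to 0.03 and the count of its calls 0, as under all other settings. The difference in share was 0.222 to 1.82 percentage points with a tumor left out and -0.455 between medians. The mt-Nd6 difference was 0.18 to 0.35 with a tumor left out and 0.37 with nuclear copies added. Genes whose direction turned with a tumor left out ran from -0.11 to 0.50 (mt-Nd1), -0.060 to 0.20 (mt-Co3), -0.031 to 0.51 (mt-Cytb) and -0.036 to 0.21 (mt-Atp8), all below 0 without KPY-Setd2KO tumor 7 except mt-Atp8 (without KPY-Setd2KO tumor 1). mt-Rnr1 ran from -0.14 to 0.77 (-0.12 without KPY-Setd2KO tumor 7, and -0.14, -0.082 and -0.079 without KPY-Ctrl tumors 3, 4 and 5) and mt-Rnr2 from -0.81 to 0.43 (without KPY-Ctrl tumor 6). The causes were not tested.

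Whether replicate numbers pair the tumors could not be told. Correlations of same-numbered deviations were 0.522, 0.602, -0.483, -0.664, 0.657 and -0.355 for numbers 1 to 6. They were positive for numbers 1, 2 and 5, whose tumors were alike in leukocyte score, and negative for 3, 4 and 6, whose tumors were not. Such correlations cannot separate pairing from library make-up. Numbers 7 and 8 occur only in KPY-Setd2KO, so with the number as a block those tumors added nothing to the comparison of genotypes. They were the tumors with mitochondrial shares of 14.5 and 11.7%. In that fit the median of the 13 genes was -0.07, with no call. mt-Nd1 was -0.47, mt-Co1 -0.038, mt-Atp8 -0.082, mt-Co3 -0.22, mt-Nd3 -0.27, mt-Nd4l -0.25, mt-Nd5 -0.073 and mt-Cytb -0.40.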
